A study of Mus musculus with 12 samples.

Results

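The 9 endothelial marker genes described here, Emcn, Pecam1, Cdh5, Vwf, Kdr, Tek, Tie1, Eng and Nos3, were chosen by name from the 21954 genes of the deposited RPKM list and were measured in 12 RNA-seq libraries of the mouse ascending aorta. RPKM is a read count divided by the length of the gene and by the size of the library. It does not adjust for the composition of a library, and mitochondrial genes made up 24.1% to 43.7% of the RPKM per library. The libraries came from 6 mice at 2 months of age, 3 of the heterozygous strain labelled Notch1.129S6+/- and 3 wildtype littermates labelled 129S6, and each mouse gave 1 proximal and 1 distal piece. The groups were therefore proximal tissue labelled Notch1+/-, wildtype proximal tissue, distal tissue labelled Notch1+/- and wildtype distal tissue, with 3 libraries each. The study asked why dilation in these mice is limited to the aortic root, at the proximal end. The labels do not say which part of Notch1 the allele lacks, or in which cells. RNA was taken from whole tissue, so fewer endothelial cells and less RNA per endothelial cell cannot be told apart.

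Endothelial cells line the lumen of every blood vessel and lymphatic vessel as a single layer, and in the aorta they sit inside a thick wall of smooth muscle. They hold on to each other through VE-cadherin and PECAM-1, sense vascular endothelial growth factor and angiopoietins through receptor tyrosine kinases, and release nitric oxide and von Willebrand factor. Markers of the lineage are not equally active in all vessels: endomucin, for example, is a glycoprotein best known from veins, capillaries and lymphatic vessels and is low on most arterial endothelium.

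The libraries held 26518332 to 36742096 reads, and 7 of the 9 markers were above the replacement floor of 0.158 RPKM in all 12. Only 2 of the 108 marker values lay at that floor, those of Emcn and Kdr in distal library 1 labelled Notch1+/-, where it stood for about 15.9 and 26.5 reads. Notch1 itself was at 2.20, 1.65 and 1.63 RPKM in the proximal libraries labelled Notch1+/-, against 1.11, 1.19 and 1.56 RPKM in wildtype proximal libraries. In distal tissue it was at 1.18, 1.85 and 1.51 RPKM in the libraries labelled Notch1+/-, against 1.12, 0.972 and 0.538 RPKM in wildtype libraries. On the log2(RPKM + 0.5) scale Notch1 was fitted 0.38 higher in proximal tissue labelled Notch1+/- (SE 0.25, adjusted p 0.999 by limma). In distal tissue it was 0.56 higher (SE 0.25), and neither difference passed. A lower level was thus not seen under the label, and the labels do not say which part of Notch1 is lacking. Every genotype difference below therefore compares libraries as labelled. Smooth muscle markers, led by Acta2, summed to 2889 to 5271 RPKM per library.

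The markers covered a wide range of levels. Pecam1 was the most abundant, at a mean of 21.3 ± 9.13 RPKM (SD, n = 12), above 92.5% of all listed genes. Cdh5 and Eng followed at 5.56 ± 1.97 and 4.85 ± 1.14 RPKM, and these neighbours did not differ beyond their spread. Tek averaged 2.71 ± 1.11 RPKM and Emcn 1.93 ± 1.64 RPKM, with single Emcn values from 0.158 to 5.26 RPKM. Nos3, Tie1 and Vwf lay close together at 1.35 ± 0.511, 1.19 ± 0.507 and 1.11 ± 0.614 RPKM. Kdr was the lowest at 0.697 ± 0.383 RPKM, and 7 of its 12 values were below the level that the file headers tie to 50 reads. That level is the same for every gene of a library and is not set to the length of Kdr. Kdr values below it and above the floor rested on 28 to 119 reads. The number of reads behind a marker value above the floor ran from 15 for Emcn to 4195 for Pecam1, so Emcn and Kdr in distal tissue were the least precise.

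**Figure D1:**
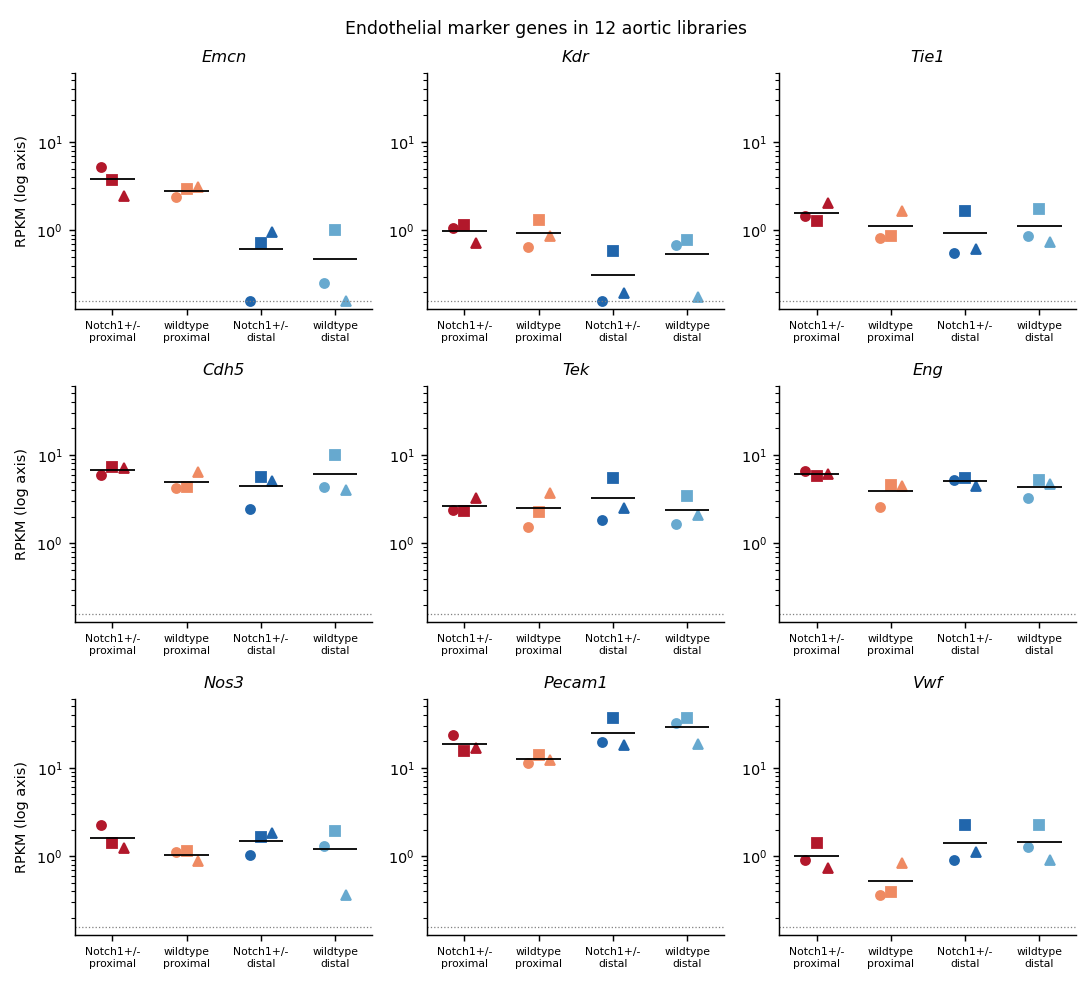
RPKM of the 9 endothelial markers (log axis) in each of the 12 libraries, with circles, squares and triangles for replicates 1, 2 and 3, a bar at each group mean and a dotted line at the replacement floor of 0.158 RPKM. The 6 proximal Emcn values, 2.40 to 5.26 RPKM, lie above all 6 distal values, and for the other 8 genes the proximal and distal values overlap.

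Emcn, which encodes endomucin, was the single marker whose proximal and distal levels differed past the threshold. Its gene lies at chr3:137341067-137432185 on the plus strand of mm10. It was at 5.26, 3.74 and 2.48 RPKM in the proximal libraries labelled Notch1+/-, against 0.158, 0.729 and 0.959 RPKM in the distal libraries of the same 3 mice. Wildtype Emcn was at 2.40, 2.95 and 3.09 RPKM proximally, against 0.255, 1.003 and 0.160 RPKM distally. The lowest proximal library was above the highest distal library, and this held over both genotypes together, which was so for 0.838% of the 17297 genes tested. Mean Emcn was 3.32 ± 1.06 RPKM in proximal tissue and 0.544 ± 0.399 RPKM in distal tissue (SD, n = 6 each), a ratio of 6.10 with 1 distal library at the floor.

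On the log2(RPKM + 0.5) scale, where the added constant shrinks differences between low values, Emcn was 1.92 higher proximally (SE 0.27, 95% interval 1.34 to 2.51). The adjusted p was 0.00351 by limma over all genes tested, where 1.5% of genes were called. Only 0.283% of the tested genes had a smaller p for this comparison. Emcn rose proximally in 6 of 6 mice, by 1.03 to 3.13 on the log2 scale. With the mouse as a replicate block the adjusted p was 0.0190, and with any 1 library left out it lay between 0.00156 and 0.0144.

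Within each genotype the Emcn difference was of similar size but did not pass. It was 1.98 higher proximally in the mice labelled Notch1+/- (SE 0.38, adjusted p 0.0701) and 1.86 higher in wildtype mice (SE 0.38, adjusted p 0.0814). For scale, 0.254% of genes were called in the mice labelled Notch1+/- and 0.237% in wildtype mice. Without wildtype distal library 2, the highest distal library for Emcn, the adjusted p was 0.0351 in the mice labelled Notch1+/- and 0.0377 in wildtype mice. That library is not part of the comparison in the mice labelled Notch1+/-, where it acts only through the shared spread and the adjustment over all genes. In each genotype 2 alternatives passed, this one included. Over the fits that leave out 1 library the adjusted p reached 0.279 in the mice labelled Notch1+/- and 0.308 in wildtype mice. With the mouse as a replicate block it was 0.157 in the mice labelled Notch1+/- and 0.197 in wildtype mice. The proximal excess of the mice labelled Notch1+/- minus that of wildtype mice was 0.12 (SE 0.54, interval -1.05 to 1.29).

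Kdr encodes VEGFR2, the main signalling receptor for vascular endothelial growth factor A, and lies at chr5:75932827-75978458 on the minus strand. It was at 1.08, 1.17 and 0.714 RPKM in the proximal libraries labelled Notch1+/-, against 0.158, 0.580 and 0.198 RPKM in the distal ones. Wildtype values were 0.647, 1.32 and 0.860 RPKM proximally, against 0.688, 0.775 and 0.179 RPKM distally. In the mice labelled Notch1+/- every proximal library was above every distal one, as in 7.55% of genes tested. In wildtype mice the groups overlapped. Averaged over genotypes Kdr was 0.69 higher proximally on the log2 scale (SE 0.25, interval 0.15 to 1.24) and did not pass (adjusted p 0.275), although 5 of 6 mice had the higher value proximally. All 9 markers passed the filter of 1 RPKM in at least 3 libraries, Kdr with exactly 3, all proximal, and Emcn with 7, of which 6 were proximal. These entries therefore depended on the location where the gene was higher; without the filter Emcn had an adjusted p of 0.00400.

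Pecam1 and Vwf had the opposite order. Pecam1, which encodes the junctional adhesion molecule CD31 (chr11:106654217-106750628, minus strand), was at 23.6, 15.6 and 16.7 RPKM in the proximal libraries labelled Notch1+/-, against 19.7, 36.8 and 18.1 RPKM in the distal ones. The wildtype libraries held 11.2, 13.8 and 12.2 RPKM proximally, against 32.4, 36.6 and 18.6 RPKM distally. Every wildtype distal library was above every wildtype proximal one, as in 11.1% of genes tested, while the libraries labelled Notch1+/- overlapped. Averaged over genotypes Pecam1 was at -0.75 on the log2 scale, proximal minus distal (SE 0.21, interval -1.22 to -0.29), with the lower value proximally in 5 of 6 mice. The adjusted p of 0.135 missed the threshold.

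Vwf encodes von Willebrand factor, the multimeric clotting protein stored in Weibel-Palade bodies of endothelium and also carried by platelets (chr6:125546774-125686679, plus strand). It was at 0.917, 1.40 and 0.738 RPKM in the proximal libraries labelled Notch1+/-, against 0.901, 2.28 and 1.11 RPKM in the distal ones. Wildtype mice had 0.361, 0.396 and 0.832 RPKM proximally, against 1.26, 2.24 and 0.897 RPKM distally. As for Pecam1 and 11.1% of genes tested, the wildtype proximal libraries were all below the distal ones, and the groups labelled Notch1+/- overlapped. The averaged difference was -0.60 (SE 0.25, interval -1.14 to -0.06, adjusted p 0.372), and 5 of 6 mice had less Vwf proximally. The platelet gene Pf4, the 1 gene measured here of a platelet list of 4, was at 2.01 to 9.90 RPKM in proximal and 0.940 to 3.76 RPKM in distal libraries. The part of platelets in the Vwf levels was not tested.

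**Figure D2:**
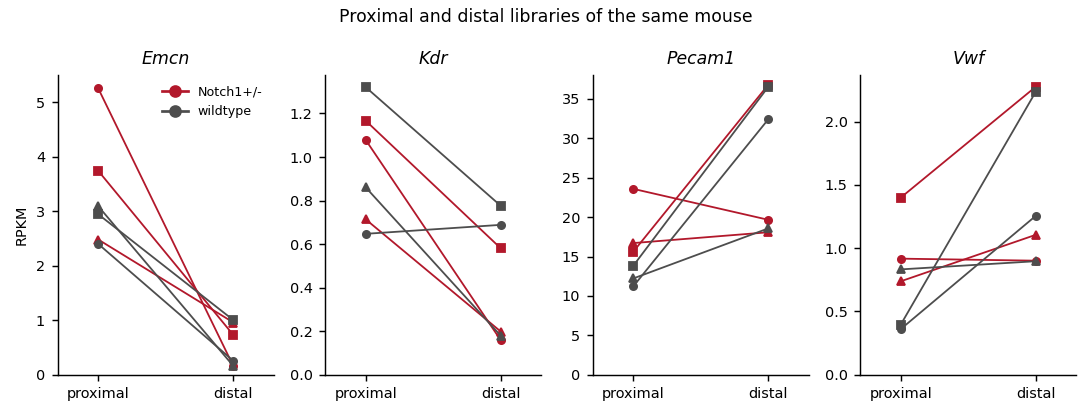
RPKM of Emcn, Kdr, Pecam1 and Vwf in the proximal and distal library of each mouse, joined by a line, with circles, squares and triangles for mice 1, 2 and 3 of each genotype label. Emcn is higher proximally in 6 of 6 mice and Kdr in 5 of 6, while Pecam1 and Vwf are lower proximally in 5 of 6.

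The other 5 markers had averaged location differences between -0.055 and 0.31 on the log2 scale, and none passed. Cdh5 encodes VE-cadherin, the adhesion molecule of endothelial adherens junctions (chr8:104101625-104144502, plus strand). It was at 5.88, 7.33 and 7.13 RPKM in the proximal libraries labelled Notch1+/-, against 2.44, 5.61 and 5.12 RPKM in the distal ones. In wildtype mice it was at 4.20, 4.36 and 6.35 RPKM proximally, against 4.37, 9.95 and 4.03 RPKM distally. The mice labelled Notch1+/- had separate groups, with proximal higher, as in 7.55% of genes tested, and wildtype mice did not. The averaged difference was 0.23 (SE 0.24, interval -0.30 to 0.75).

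Tie1 and Tek encode the receptor tyrosine kinases of the angiopoietin system, Tek (TIE2) binding angiopoietins and Tie1 acting with it. Tek (chr4:94739289-94874976, plus strand) was at 2.41, 2.34 and 3.25 RPKM in the proximal libraries labelled Notch1+/-, against 1.84, 5.49 and 2.50 RPKM in the distal ones, and at 1.55, 2.26 and 3.70 RPKM in wildtype proximal libraries, against 1.67, 3.43 and 2.08 RPKM in wildtype distal ones. Tie1 (chr4:118471191-118490061, minus strand) was at 1.46, 1.27 and 2.05 RPKM in the proximal libraries labelled Notch1+/-, against 0.558, 1.65 and 0.622 RPKM in the distal ones, and at 0.823, 0.875 and 1.67 RPKM in wildtype proximal libraries, against 0.857, 1.73 and 0.738 RPKM in wildtype distal ones. All of these groups overlapped, and each gene was higher proximally in 3 of 6 mice. The averaged differences were -0.055 for Tek (SE 0.26) and 0.31 for Tie1 (SE 0.25).

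Eng encodes endoglin, a co-receptor for bone morphogenetic proteins on endothelium (chr2:32646595-32682669, plus strand). It was at 6.63, 5.73 and 6.13 RPKM in the proximal libraries labelled Notch1+/-, against 5.14, 5.45 and 4.42 RPKM in the distal ones. In wildtype mice it was at 2.57, 4.59 and 4.43 RPKM proximally, against 3.24, 5.19 and 4.68 RPKM distally. The averaged difference was 0.052 (SE 0.16, interval -0.31 to 0.41), the narrowest interval of the 9 markers. Within mice, Eng was higher proximally in all 3 labelled Notch1+/- and lower in all 3 wildtype mice. The share of all genes with this pattern was not counted, and the limma interaction of Eng did not pass (adjusted p 0.9996). The antisense neighbour Fpgs overlaps 1.51% of the Eng exon bases, and the library kit did not mark strand.

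Nos3 encodes endothelial nitric oxide synthase (chr5:24364810-24384474, plus strand). It was at 2.23, 1.40 and 1.23 RPKM in the proximal libraries labelled Notch1+/-, against 1.03, 1.66 and 1.83 RPKM in the distal ones. In wildtype mice it was at 1.11, 1.15 and 0.871 RPKM proximally, against 1.32, 1.94 and 0.363 RPKM distally. The groups overlapped, and the averaged difference was 0.026 (SE 0.25, interval -0.53 to 0.58). Its level is uncertain because 32.3% of its exon bases lie opposite exons of Atg9b and Gm15587, and reads of the strands cannot be told apart. Apart from Nos3 and Eng, the other 7 markers had no such overlap.

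**Figure D3:**
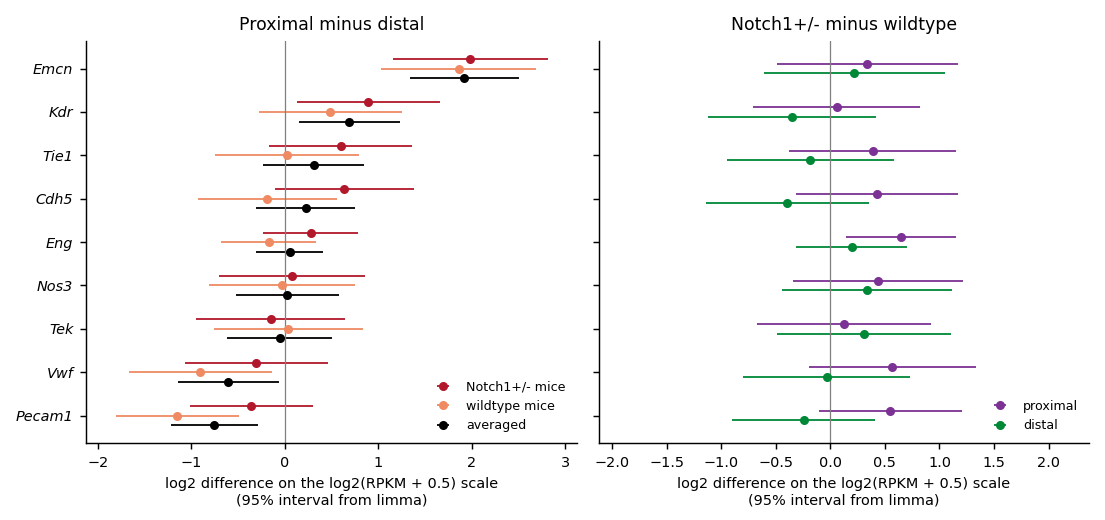
Fitted log2 differences of the 9 markers on the log2(RPKM + 0.5) scale with 95% limma intervals, proximal minus distal on the left and libraries labelled Notch1+/- minus wildtype on the right. The averaged interval of Emcn, 1.34 to 2.51, is the farthest from 0, those of Pecam1, Vwf and Kdr also exclude 0 before adjustment, and the genotype intervals include 0 for all markers but Eng in proximal tissue.

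By count, 1 of the 9 markers passed the test of location averaged over genotypes, beside 1.5% of all genes tested. Within either genotype 0 passed, beside 0.254% of genes in the mice labelled Notch1+/- and 0.237% in wildtype mice. The median averaged difference of the markers was 0.052, beside -0.049 over all genes tested. In the mice labelled Notch1+/-, Emcn, Cdh5, Kdr and Eng were higher in every proximal than in every distal library, a pattern seen in 7.55% of all genes tested, and the median difference of the markers was 0.28, beside 0.024. In wildtype mice Emcn alone was higher in every proximal library, beside 2.61% of genes, and Pecam1 and Vwf were lower in every proximal library, beside 11.1% of genes. The wildtype median was -0.024, beside -0.13 over all genes.

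No marker passed the test between genotypes. In proximal tissue the groups were separate for Pecam1, Eng and Nos3, with the libraries labelled Notch1+/- higher, as was so for 7.78% of genes tested. The largest fitted difference was that of Eng, at 6.16 ± 0.453 RPKM in the libraries labelled Notch1+/- and 3.86 ± 1.12 RPKM in wildtype libraries (SD, n = 3 each), or 0.64 on the log2 scale (SE 0.23, interval 0.14 to 1.15, adjusted p 0.999). All 9 markers were fitted higher in the libraries labelled Notch1+/-, as were 68.4% of all genes tested. The median of the markers was 0.43, beside a median of 0.11 over all genes. Under quantile normalization and median-of-ratios scaling, which centre the libraries on each other, Kdr was fitted lower. limma called 0% of the 17297 genes in this comparison, and 561 genes had an unadjusted p below 0.05, of which Eng was 1.

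In distal tissue the marker groups of both genotypes overlapped for all 9 genes. The fitted differences, libraries labelled Notch1+/- minus wildtype, ran from -0.40 for Cdh5 to 0.33 for Nos3. Neither end kept its sign in all fits: Cdh5 was at 0.32 without wildtype library 2 and library 1 labelled Notch1+/-, the distal libraries with the most heart muscle myosin, and Nos3 at -0.097 without wildtype library 3. The median of the 9 differences was -0.035, beside -0.042 over all genes. limma called 0% of genes here too, and none of the 524 genes with an unadjusted p below 0.05 was a marker. The interaction of location and genotype also called 0% of genes, with 507 at an unadjusted p below 0.05 and no marker among them. Its largest marker estimates were 0.82 for Cdh5 (SE 0.49), 0.79 for Pecam1 (SE 0.43) and 0.60 for Vwf (SE 0.50), with intervals that include 0. Without the same pair of distal libraries they were 0.11 for Cdh5, 0.48 for Pecam1 and 0.13 for Vwf.

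The markers also differed in their proportions to each other, which are ratios of RPKM within 1 library and were chosen after the values were seen, so that no test is given. The ratio of Emcn to Pecam1 was 0.149 to 0.253 in the 6 proximal libraries and 0.00788 to 0.0531 in the 6 distal libraries. That of Vwf to Emcn was 0.134 to 0.374 proximally and 1.15 to 5.71 distally. Pecam1 contributed 35.9% to 47.7% of the RPKM summed over the 9 markers in proximal tissue and 51.9% to 70.4% in distal tissue. The sum itself overlapped between locations, at 24.9 to 49.5 RPKM proximally and 31.7 to 62.8 RPKM distally.

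Across the 12 libraries, the markers did not follow 1 common profile. The Pearson correlation of log2(RPKM + 0.5) was 0.83 between Pecam1 and Vwf, 0.82 between Cdh5 and Tie1, 0.79 between Emcn and Kdr and 0.74 between Tek and Tie1. Emcn and Pecam1 had a correlation of -0.47 over all 12 libraries, but 0.78 over the 6 proximal libraries and 0.39 over the 6 distal ones. These libraries share mice and locations, and the values are given as a description. Tie1 and Cdh5 were closest to the mean profile of the 9 markers (0.86 and 0.85) and Emcn and Pecam1 the farthest (0.47 each). The mean profile was lowest in distal library 3 of wildtype, distal library 1 labelled Notch1+/- and proximal library 1 of wildtype, and highest in wildtype distal library 2.

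Outside the 9 markers, the genes most like their mean profile over the 12 libraries included Zfp7 (0.87), Mtmr9 (0.87), Ece1 (0.86), Gm5617 (0.86), Adcy4 (0.86), Tln2 (0.86), Usp19 (0.86), Gm37388 (0.85) and Gm37013 (0.85). For single markers the closest profiles were Thbs1 (0.95) and Des (0.94) for Emcn, Cgnl1 (0.96) and Phf12 (0.93) for Pecam1, and Ptprb (0.95) and Gm9061 (0.93) for Vwf. Kdr was closest to Ccbe1 (0.92) and Sned1 (0.91), Tie1 to Ly6e (0.95) and Tln2 (0.94), and Nos3 to Icam2 (0.85) and Gm37962 (0.84). Cdh5 was closest to Tnfrsf23 (0.89) and Gm5617 (0.88), Tek to Tm2d2 (0.89) and Ggta1 (0.89), and Eng to Apip (0.93) and Map2k7 (0.91).

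The promoters of Emcn and Kdr are shown because Emcn was the marker that differed by location and Kdr the marker whose profile was most like it. They are the 200 bases before the start that RefSeq gives on GRCm38.p6, written in the direction of the gene, and capitals mark matches on either strand to AGGAAG or CGGAAG, forms of the core bound by ETS factors such as ERG and FLI1.
Emcn, chr3:137340878-137341077, plus strand: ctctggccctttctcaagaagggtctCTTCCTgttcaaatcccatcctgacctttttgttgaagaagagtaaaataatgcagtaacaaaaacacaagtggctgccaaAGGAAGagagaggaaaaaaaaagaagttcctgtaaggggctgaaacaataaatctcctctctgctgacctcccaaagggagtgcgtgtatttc
Kdr, chr5:75978456-75978655, minus strand: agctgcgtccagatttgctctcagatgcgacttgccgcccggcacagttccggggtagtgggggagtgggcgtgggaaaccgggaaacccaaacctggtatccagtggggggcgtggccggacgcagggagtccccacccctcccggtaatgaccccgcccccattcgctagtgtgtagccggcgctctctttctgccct
The Emcn window held 2 matches and the Kdr window 0, and Emcn and Eng were the 2 of 5 markers matched in RefSeq to hold AGGAAG, while 0 of the 5 held CGGAAG. For comparison, AGGAAG occurred in 24.5% and CGGAAG in 12.3% of 27025 promoters of the same length. The GC content was 43% for Emcn and 65.5% for Kdr, with a median of 53% over all promoters.

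Among 76 further tested genes of endothelial pathways and vessel types, grouped in 13 lists, 8 passed the test of location averaged over genotypes, 6 higher and 2 lower proximally, beside 1.5% of all genes called. Fewer than 3 distal libraries reached 1 RPKM of Flt4, Prox1, Angpt1 (1 each) and Mmrn1 (2), and 1 proximal library that of Svep1, so these 5 genes entered the test through the location where they were higher. Without the filter their adjusted p values were 0.000794 for Flt4, 0.00254 for Prox1, 0.0338 for Angpt1, 0.00371 for Mmrn1 and 0.00794 for Svep1. Lymphatic markers had 2 of 4 tested genes higher. Prox1, the transcription factor that sets lymphatic identity, averaged 2.37 ± 0.723 RPKM proximally and 0.398 ± 0.370 RPKM distally (SD, n = 6 each), a log2 difference of 1.73 (SE 0.23, adjusted p 0.00295). Ccl21a, a chemokine of lymphatic endothelium whose near-identical copies make its reads uncertain, averaged 84.3 ± 34.5 RPKM proximally and 10.0 ± 7.79 RPKM distally (log2 difference 3.42, adjusted p 0.0119). Lyve1 and Pdpn did not pass, at log2 differences of 0.65 and -0.42.

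In the vascular endothelial growth factor list, 1 of 8 tested genes was higher proximally, and it was Flt4, which encodes VEGFR3, the receptor for VEGF-C on lymphatic endothelium. Flt4 was at 4.68, 3.996 and 4.83 RPKM in the proximal libraries labelled Notch1+/-, against 0.274, 0.921 and 0.434 RPKM in the distal ones, and at 2.96, 3.35 and 3.62 RPKM in wildtype proximal libraries, against 0.931, 1.42 and 0.378 RPKM in wildtype distal ones. All 6 proximal values were above all 6 distal values, as in 0.838% of genes tested and as for Prox1, Mmrn1, Angpt1 and Ccl21a. The log2 difference of Flt4 was 1.90 (SE 0.21, adjusted p 0.00072). Flt1, the sister receptor of Kdr, was at -0.091 and did not pass.

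The angiopoietin list, which holds partners of Tek and Tie1, had 1 of 5 genes higher and 1 lower. Angpt1, the activating ligand of Tek, averaged 2.02 ± 1.01 RPKM proximally and 0.517 ± 0.328 RPKM distally (log2 difference 1.28, SE 0.27, adjusted p 0.0366). Svep1, an extracellular matrix protein, averaged 0.913 ± 0.251 RPKM proximally and 3.08 ± 1.02 RPKM distally (log2 difference -1.31, adjusted p 0.00662). Ptprb, the phosphatase that acts on Tek, was at -0.62 and did not pass.

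Of 7 haemostasis and Weibel-Palade genes, the group to which Vwf belongs, 1 was higher and 1 lower. Mmrn1, which encodes the multimerin of platelets and endothelium, averaged 5.96 ± 1.29 RPKM proximally and 0.921 ± 0.990 RPKM distally (log2 difference 2.45, SE 0.33, adjusted p 0.00317). Edn1, which encodes the vasoconstrictor endothelin, averaged 3.01 ± 0.791 RPKM proximally and 5.63 ± 1.04 RPKM distally (log2 difference -0.82, SE 0.16, adjusted p 0.0214). Thbd, the most abundant of the list, was at -0.37 and did not pass.

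Of 4 tested arterial genes 1 was higher, Gja4, which encodes the gap junction protein connexin 37, at 4.12 ± 1.06 RPKM proximally and 1.76 ± 0.659 RPKM distally (log2 difference 1.05, SE 0.23, adjusted p 0.0404). None of the 19 tested pan-endothelial genes passed. Their median difference was 0.060, and Erg, the most abundant, was at -0.63 (SE 0.21, adjusted p 0.238). None passed among 5 capillary genes, 3 venous, 3 endocardial, 2 activation, 6 junction, 3 endoglin-partner and 7 nitric oxide pathway genes, whose list medians ran from -0.16 for endoglin partners to 0.46 for capillary genes.

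**Figure D4:**
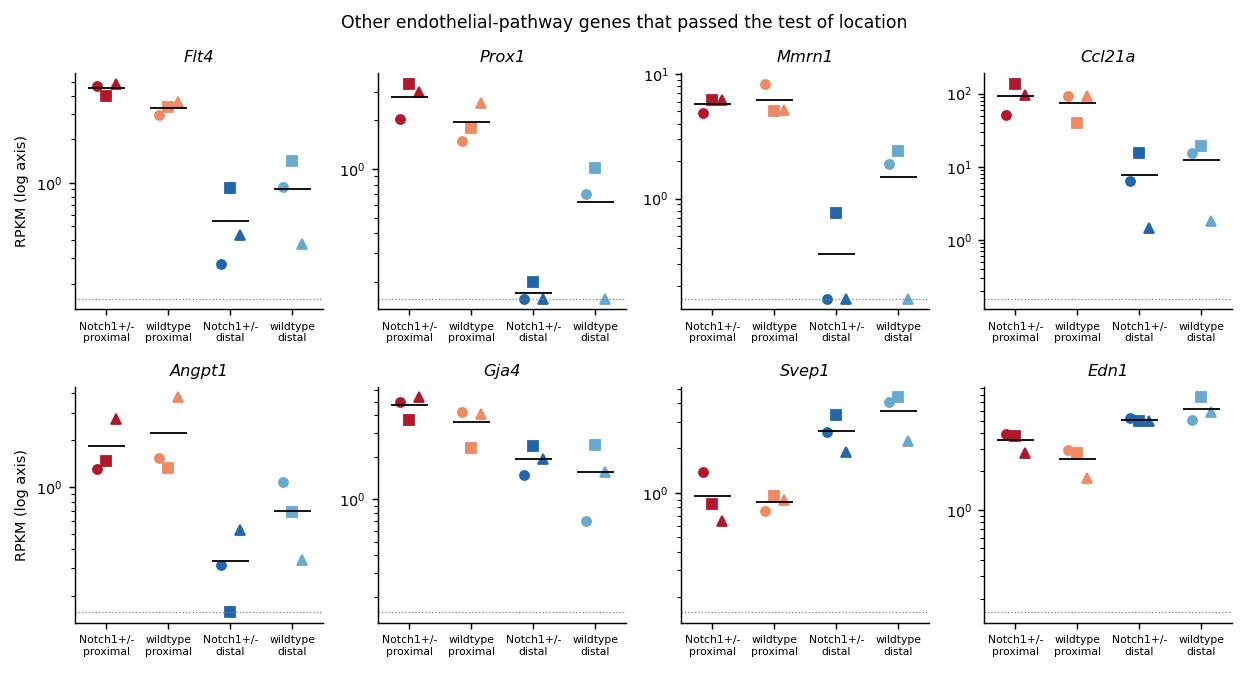
RPKM (log axis) in each library of the 8 further endothelial-pathway genes that passed the averaged test of location, with circles, squares and triangles for replicates 1, 2 and 3, a bar at each group mean and a dotted line at the floor of 0.158 RPKM. Flt4, Prox1, Mmrn1, Ccl21a, Angpt1 and Gja4 are higher proximally, and Svep1 and Edn1 are lower.

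With the mouse as a replicate block 8 of these 76 genes were again called, of which 6 were shared. Angpt1 (adjusted p 0.0809) and Gja4 (adjusted p 0.115) dropped out, and Erg (adjusted p 0.0403) and Aqp1, a capillary water channel gene (adjusted p 0.0402), came in, both lower proximally. Angpt1 held with 2 of 12 single libraries left out, wildtype proximal 2 and wildtype distal 1, and reached an adjusted p of up to 0.103 without any of the others. Gja4 held without wildtype proximal 2 or wildtype distal 2 and reached up to 0.109. Edn1 missed the threshold without proximal library 3 (0.0628) or distal library 1 (0.0526) labelled Notch1+/-, or wildtype distal library 2 (0.0510) or 3 (0.0520). Flt4, Prox1, Mmrn1, Ccl21a and Svep1 passed with any 1 library left out.

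Within the mice labelled Notch1+/-, 3 of the 76 genes passed, beside 0.254% of all genes, all higher proximally: Flt4 at 2.30 (adjusted p 0.00615), Prox1 at 2.27 (adjusted p 0.0130) and Mmrn1 at 2.93 (adjusted p 0.0272). These 3 genes entered the test through proximal tissue, where they were higher. Flt4 passed in 22 of 22 alternatives, the fit without the filter among them, Prox1 in 16 of 21 and Mmrn1 in 15 of 22. With the replicate block Prox1 was at an adjusted p of 0.0619. Prox1 missed the threshold without proximal library 2 (0.107) or 3 (0.0823) or distal library 1 (0.0552) or 3 (0.0679) labelled Notch1+/-, and Mmrn1 without proximal library 1 (0.102), 2 (0.142) or 3 (0.110) or distal library 1 (0.0991) or 3 (0.140). In wildtype mice none passed, and Svep1 and Edn1 were at adjusted p values of 0.0599 and 0.0664. The interaction was past the threshold for none of them, so no difference between the genotype labels was shown.

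Of the other cell types' marker lists, those of heart muscle and fibroblasts held genes that passed the averaged test of location, 6 of 10 higher and 1 of 6 lower proximally. Over all genes tested 1.5% were called, and 11.1% had an unadjusted p below 0.05 by limma. All 10 heart muscle markers were fitted higher proximally, and their summed level was 207 to 1428 RPKM in proximal and 17.4 to 265 RPKM in distal libraries. Macrophage markers summed to 46.1 to 80.4 RPKM proximally and 14.3 to 59.4 RPKM distally, with 0 of 6 called and 5 at an unadjusted p below 0.05. Mesothelial markers summed to 3.27 to 18.1 RPKM proximally and 12.0 to 35.1 RPKM distally, with 0 of 4 called. Without the 2 distal libraries with the most Myh6, a heart muscle myosin (wildtype library 2 at 119 RPKM and library 1 labelled Notch1+/- at 48.0 RPKM), Emcn was at 1.93 with an adjusted p of 0.00147 by limma. In the same fit Pecam1 was at -0.72 and Kdr at 0.71, and 5 of the 76 further endothelial genes were called, beside 158 of all 17297 genes. Leaving these libraries out widens the gap in heart muscle markers between the locations, and the part of these other cells in the location differences was not tested.

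**Figure D5:**
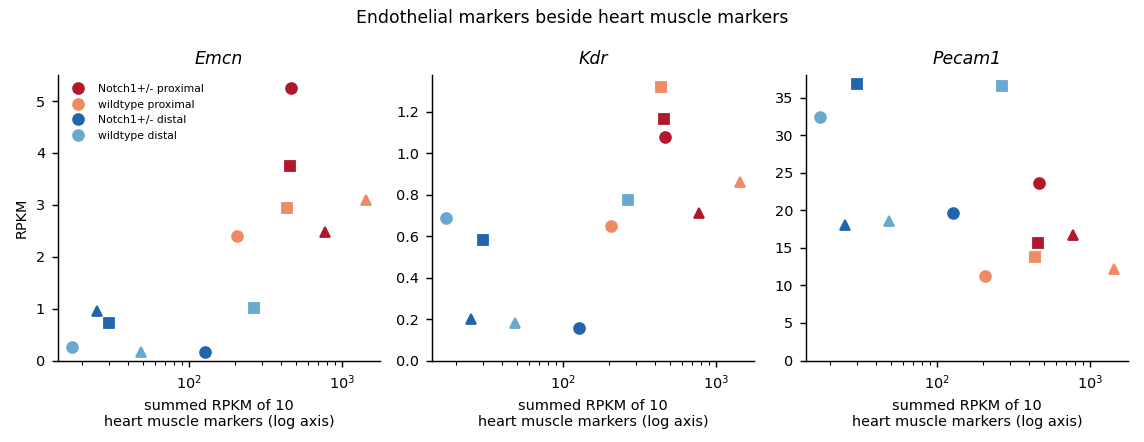
RPKM of Emcn, Kdr and Pecam1 against the summed RPKM of 10 heart muscle markers (log axis) in the 12 libraries, with circles, squares and triangles for replicates 1, 2 and 3. Heart muscle markers sum to 207 to 1428 RPKM in proximal libraries and 17.4 to 265 RPKM in distal ones, and Emcn is at 2.40 to 5.26 RPKM in proximal libraries and at most 1.003 RPKM in distal ones.

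The summed levels of the fibroblast, pericyte, adipocyte, red blood cell and endocardial lists overlapped between the locations. Fibroblast markers summed to 436 to 889 RPKM proximally and 487 to 660 RPKM distally, and pericyte markers to 94.0 to 222 RPKM proximally and 109 to 166 RPKM distally. Adipocyte markers summed to 4.88 to 82.8 RPKM proximally and 1.35 to 73.0 RPKM distally, red blood cell genes to 3.10 to 135 RPKM proximally and 10.7 to 86.2 RPKM distally. Endocardial markers, which would mark the lining of the heart itself, summed to 5.19 to 7.26 RPKM proximally and 4.40 to 8.95 RPKM distally. The 2 Schwann cell genes listed were low, and their sum was higher in every proximal library, at 1.14 to 3.06 RPKM, than in any distal one, at 0.316 to 1.02 RPKM. For single genes this was so in 0.838% of those tested. Lymphocyte markers were not analysed here.

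The authors' deposited table gave Emcn a p of 0.00101 and a false discovery rate of 0.0880 for location in an analysis of variance with genotype and location as factors. In the authors' deposited table the false discovery rate for location was 0.278 for Pecam1, 0.324 for Kdr and 0.407 for Vwf, and for genotype it was 0.999 for all 9 markers.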

How the data were processed

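The authors deposited RPKM values per gene and library (reads scaled to gene length and library size). Per the submitters' processing notes, TopHat2 2.1.0, Bowtie2 and R 3.2.2 were used, with the mm10 genome. Neither those notes nor the labels name the counting tool or the annotation release. Per the labels' protocols, 10 ng of RNA was amplified with a kit that does not mark strand and sequenced as paired reads of 50 bases. Per the file headers, values below the detection threshold (10 reads, averaged over libraries) were replaced by 0.158 RPKM. In the list 9.88% of values lay at or below it, 281 of them below. The authors' deposited table also holds p-values and ratios (fold changes) of the authors' own comparisons. Another 24 columns, repeating these values or correlating libraries, were not used. The deposited sample sheet and thresholds table gave sample codes and totals of other kinds, such as reads per library.

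From the RPKM values, log2(RPKM + 0.5) was tested with limma 3.58.1 (trended variance, 2-sided, R 4.3.3) for 17297 genes with at least 1 RPKM in at least 3 libraries. The 4 group means were fitted together with 8 residual degrees of freedom, 6 contrasts were drawn, and p-values were adjusted by Benjamini-Hochberg over all genes, with calls below 0.05. Genes were named by rule: the 9 markers, the called genes of each endothelial list or its most abundant ones, summed levels of 11 other cell type lists, and the closest profiles, of which 1 gene is not reported here. The members and lists were chosen with earlier results of these data known. The limma step was tested on simulated data. Read numbers were recovered from RPKM steps, with library sizes found from annotated gene lengths and the length of each marker from its own steps. For Cdh5 that length was 3986 bases, against 4203 in the annotation used. The read numbers cover counting error only in amplified libraries.

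Proximal and distal libraries with the same number come from the same mouse, since the sample codes of the deposited sheet share a number in 6 of 6 mice. Deviations of such pairs from their group means correlated at 0.0731 to 0.216. Replicates are separate mice within a group. The alternatives were other pseudocounts, filters and scalings, the block, fits of only the groups compared, and fits without single libraries or without the distal libraries richest in Myh6. Depth sets the precision of Emcn and Kdr in distal tissue, where values rest on few reads.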

Additional observations from a re-analysis of the deposited data

Results flagged for a closer look

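Eng was picked out because its location difference had opposite signs in the genotypes in every mouse. Proximal minus distal, it was 0.065 to 0.43 on the log2 scale in the 3 mice labelled Notch1+/- (mean 0.28), against -0.29 to -0.072 in the 3 wildtype mice (mean -0.17). The difference between the genotype labels was 0.4508 (SE 0.33), and its limma interaction test gave an adjusted p of 0.9996 over all genes, so it did not pass. Over the fits that leave out 1 library the difference was 0.21 to 0.63. The same difference was above 0 for 68.7% of all genes tested, with a median of 0.16. The share of genes with this sign pattern in every mouse was not counted. Notch1 itself was not lower in the libraries labelled Notch1+/-, and 1.51% of the Eng exon bases lie opposite Fpgs.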

How the results depend on the processing

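The proximal excess of Emcn passed under all 21 alternatives, at 1.49 to 2.63 on the log2 scale and adjusted p values of 0.00147 to 0.0190, the highest with the replicate block. The block, the mouse for location and the replicate number for genotype, changed no call of a marker; numbers shared between genotypes name no common animal, and the deviations of such pairs correlated at -0.0265 to 0.249. Of 1137 alternative values of the markers, 1065 kept their direction and side of the threshold, 4 passed where the reported one had not (all Emcn within 1 genotype) and 68 changed sign, none of them called. Called markers numbered 1 in the mice labelled Notch1+/- with a pseudocount of 1 and 1 in wildtype mice without the 2 distal libraries richest in Myh6, and 0 to 1 in both with single libraries left out. The alternatives for the further endothelial genes were chosen after seeing the data. Of the 76, averaged calls numbered 5 with a filter of 2 RPKM in 6 libraries (49 tested, without Prox1, Angpt1 and Svep1, and the other 5 still called), 5 without the Myh6-rich libraries and 5 to 8 with single libraries left out (5 without proximal library 3 or distal library 1 labelled Notch1+/-, or wildtype distal library 3). In the mice labelled Notch1+/- they numbered 1 to 4 with single libraries left out. In wildtype mice they numbered 1 with quantile normalization, 1 with median-of-ratios scaling, 2 with a constant sum, 1 without the Myh6-rich libraries and 0 to 1 with single libraries left out. Under the filter of 2 RPKM in 6 libraries, Vwf, Kdr, Tie1 and Nos3 gave no value.

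Differences that were not called changed sign as follows, and the cause was not tested. For location in wildtype mice, Cdh5 was at 0.20 and Nos3 at 0.30 without the Myh6-rich libraries, Tek at -0.029 and Tie1 at -0.025 with a constant sum, and Nos3 at 0.045 with a pseudocount of 0.1, 0.051 with quantile normalization and 0.077 with median-of-ratios scaling. In the mice labelled Notch1+/-, Nos3 was at -0.11 without the Myh6-rich libraries. Between genotypes, Kdr in proximal tissue was at -0.073 with quantile normalization and -0.034 with median-of-ratios scaling. Vwf in distal tissue was at 0.0023 and 0.0012 under these scalings, and without the Myh6-rich libraries Pecam1 was at 0.071, Cdh5 at 0.32, Vwf at 0.43 and Tie1 at 0.26. The interaction of Emcn was at -0.0086 with a pseudocount of 0.1, -0.025 with median-of-ratios scaling and -0.58 without the Myh6-rich libraries, and that of Nos3 at -0.028 with quantile normalization, -0.030 with median-of-ratios scaling and -0.40 without those libraries.

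With single libraries left out, the averaged location difference ran from -0.20 to 0.14 for Tek, -0.037 to 0.17 for Eng and -0.19 to 0.19 for Nos3. In the mice labelled Notch1+/- it ran from -0.43 to 0.25 for Tek and -0.12 to 0.21 for Nos3, and in wildtype mice from -0.40 to 0.20 for Cdh5, -0.24 to 0.28 for Tek, -0.20 to 0.29 for Tie1, -0.35 to 0.063 for Eng and -0.45 to 0.30 for Nos3. The genotype difference in proximal tissue ran from -0.10 to 0.24 for Kdr and -0.12 to 0.40 for Tek. In distal tissue it ran from -0.014 to 0.58 for Emcn, -0.33 to 0.23 for Vwf, -0.082 to 0.60 for Tek, -0.51 to 0.077 for Tie1 and -0.10 to 0.65 for Nos3. The interaction ran from -0.24 to 0.36 for Emcn, -0.47 to 0.21 for Tek and -0.22 to 0.53 for Nos3.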
